A study of Mus musculus with 12 samples.

Results

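The genes that encode the NFκB transcription factor subunits and the IκB kinases were followed in neutrophils on the array. The group was set by name: the subunit genes Nfkb1, Nfkb2, Rel, Rela and Relb, and the kinase genes Ikbke, Ikbkb, Ikbkg, Chuk and Tbk1. Ikbkg encodes a regulatory subunit of the kinase complex and not a kinase, and is grouped with the kinase genes here. Of these 10 genes, 8 had a row under their own symbol in the platform annotation, each with exactly 1 transcript cluster. A transcript cluster is a set of probes with 1 signal per array. The 28944 clusters tested carry 1 gene symbol, several or none. Nfkb1 and Chuk had no row under their symbols and were not analysed here.

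Ly6G+ neutrophils were taken from mouse bone marrow and kept for 4 h on a plate. The study's methods isolate neutrophils by hypotonic lysis and a Percoll density gradient. Sorting on Ly6G is described there only for the test of neutrophil-specific CARD9 deletion. The groups were Card9-/- cells on immobilized immune complexes (IC, human serum albumin bound by anti-human serum albumin antibody), Card9-/- cells on the control surface (human serum albumin alone), wild-type C57BL/6 cells on IC, and wild-type cells on the control surface. Each group was measured once in each of 3 experiments done on separate occasions, giving 12 Affymetrix arrays with 150 ng of total RNA each. By the study's methods, mice were of both sexes and a few months old, and no source used here gives the number of animals behind an array. The Card9-/- mice were homozygous for the conventional Card9 tm1Jrld mutation, which is carried by every cell of the animal and not by neutrophils alone, and the line had been backcrossed to C57BL/6. Adherent and non-adherent cells were lysed together, so a smaller number of responding cells and less RNA per cell cannot be told apart in any result below.

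NFκB is a family of dimeric transcription factors that drive cytokine, chemokine and survival genes. In resting cells the dimers are held in the cytoplasm by IκB proteins. In the canonical route, a complex of the kinase IKKβ (gene Ikbkb), the kinase IKKα (Chuk) and the regulatory subunit NEMO (Ikbkg) marks IκB for destruction and frees dimers that contain p65 (Rela) or c-Rel (Rel). In the non-canonical route, IKKα drives the processing of the p100 precursor (Nfkb2) to p52, which pairs with RelB (Relb). The related kinases IKKε (Ikbke) and TBK1 (Tbk1) are best known for activating interferon regulatory factors. CARD9 is the adaptor that links Syk-coupled receptors to the canonical route through Bcl10 and Malt1. Several of the genes, Nfkb2, Rel, Relb and Ikbke among them, are known to be induced by NFκB itself. The arrays report RNA and not the activity or location of any of these proteins.

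NFκB dimers bind short DNA motifs called κB sites. The 250 bases before the transcription start are shown for Nfkb2, Rel and Tbk1, the first 2 because their windows hold the κB consensus and Tbk1 as a kinase gene whose window does not. The sequences are those of RefSeq on build GRCm38.p6, which held such windows for 7 of the 10 genes. They run 5′ to 3′ on the coding strand, and capitals mark each match to the κB consensus on either strand. The windows lie at chr19:46304487-46304736 (+) for the first of 3 annotated starts of Nfkb2, at chr11:23770970-23771219 (-) for Rel, and at chr10:121586795-121587044 (-) for Tbk1.
Nfkb2: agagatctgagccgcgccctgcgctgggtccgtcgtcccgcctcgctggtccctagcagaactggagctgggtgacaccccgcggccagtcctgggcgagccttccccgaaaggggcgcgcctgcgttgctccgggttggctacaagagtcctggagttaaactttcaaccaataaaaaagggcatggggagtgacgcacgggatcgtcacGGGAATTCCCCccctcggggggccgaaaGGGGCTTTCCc
Rel: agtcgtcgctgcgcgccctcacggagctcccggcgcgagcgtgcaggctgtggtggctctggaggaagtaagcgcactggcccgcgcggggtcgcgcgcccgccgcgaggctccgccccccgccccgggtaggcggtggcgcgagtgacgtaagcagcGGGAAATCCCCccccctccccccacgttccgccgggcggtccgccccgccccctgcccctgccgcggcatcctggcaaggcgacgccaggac
Tbk1: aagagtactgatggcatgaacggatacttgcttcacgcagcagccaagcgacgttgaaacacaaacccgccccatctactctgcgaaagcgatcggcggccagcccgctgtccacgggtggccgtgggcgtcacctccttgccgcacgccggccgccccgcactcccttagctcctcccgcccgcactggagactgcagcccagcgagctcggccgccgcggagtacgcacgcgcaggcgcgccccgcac

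In the Nfkb2 window, overlapping matches on both strands lay 39 to 29 bases before the start, and GGGGCTTTCC lay 11 to 2 bases before it. The other 2 Nfkb2 starts each had a match as well, GGGACATTCC and GGGACTTTCC. In the Rel window, overlapping matches on both strands lay 92 to 82 bases before the start. No match was present in the windows of Tbk1, Rela, Ikbke, Ikbkg or Chuk. A κB consensus match occurred in the windows of 8.23% of all genes. A match is a description of the letters and not evidence of binding.

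The targeted gene followed the labels on every array. Card9 was between 5.56 and 6.42 on the log2 scale in Card9-/- samples and between 8.08 and 8.75 in wild-type samples. On the control surface the difference was -2.52 ± 0.22 (SE, limma adjusted p = 0.00229), and on IC it was -2.27 ± 0.22 (adjusted p = 0.00491). Here and below, limma compared the groups within experiments (3 arrays per group), and adjusted p-values are those of Benjamini and Hochberg, taken over every cluster tested. All 12 neutrophil markers lay above the array median on every array, with S100a8 between 12.4 and 12.7 and Ly6g between 11.8 and 12.6. The median signal of the arrays was 5.70 to 5.75 in experiment 1, 5.86 to 5.93 in experiment 2 and 5.27 to 5.39 in experiment 3, so groups were compared within experiments.

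The first comparison asked how Card9-/- neutrophils differed from wild-type neutrophils on IC. Of the 8 genes, 7 had lower mean signals in Card9-/- cells, as did 53.6% of all clusters. Relb, Nfkb2 and Ikbke were furthest apart, by 2.52-fold, 2.39-fold and 4.43-fold. None of the 8 genes passed the adjusted threshold of 0.05. Across all clusters 0.162% passed it, 0.117% lower and 0.0449% higher in Card9-/- cells. At an unadjusted p under 0.05, 6 of 8 were lower in Card9-/- cells, against 5.10% of all clusters. The same 6 genes (Relb, Nfkb2, Ikbke, Rel, Rela and Tbk1) lay below wild type in all 3 experiments, which held for 15.4% of all clusters. The median difference of the 8 genes was -0.46 log2 (-0.72, -0.65 and -0.21 in experiments 1 to 3), beside -0.014 over all clusters.

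**Figure D1:**
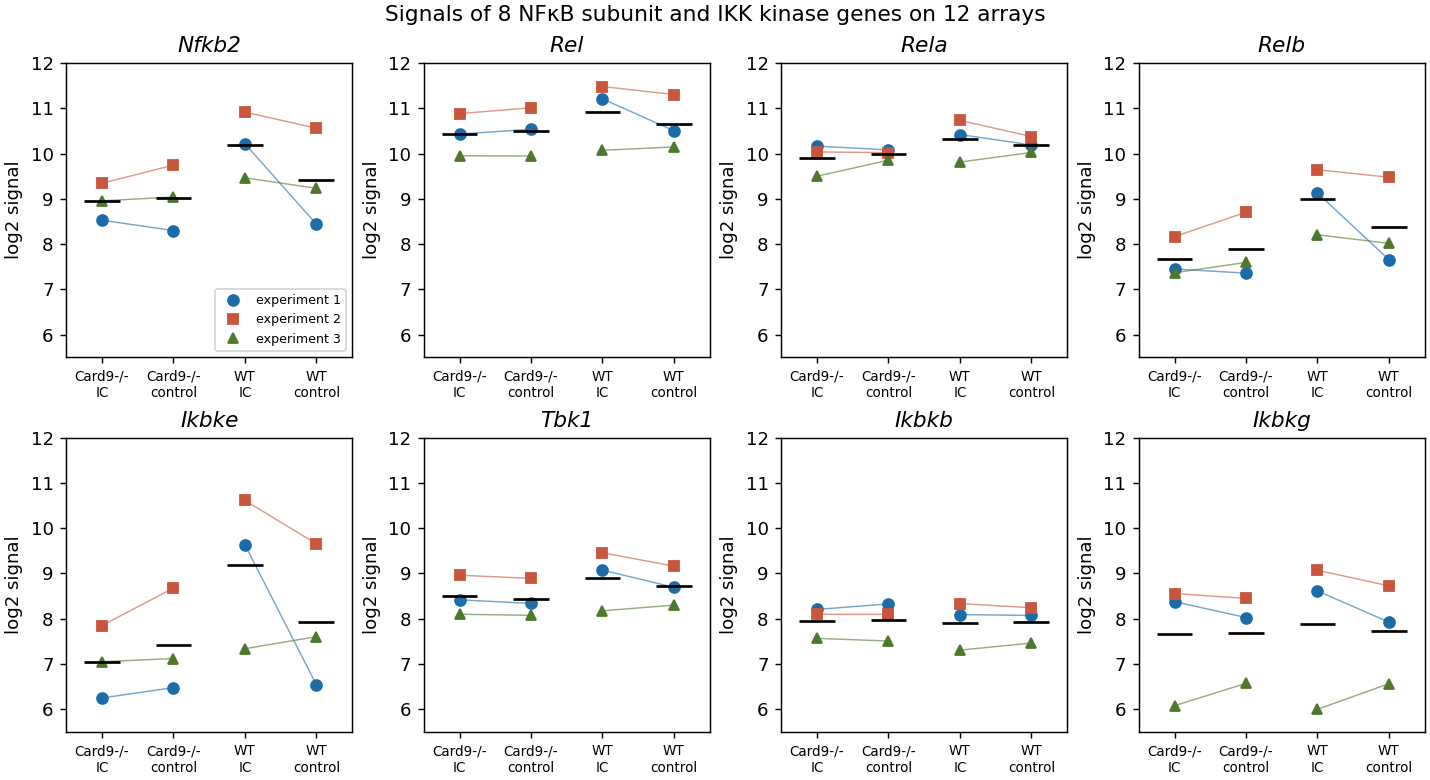
Deposited log2 signals of the 8 genes on the 12 arrays, with 1 panel per gene, the 4 groups along the axis and 1 symbol per experiment (1 to 3). Lines join the IC and control arrays of 1 experiment and genotype, and bars mark group means (n = 3). Wild-type cells on IC had the highest mean for every gene except Ikbkb, and the experiments lay as far apart as the groups for several genes.

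Among the subunit genes, all 4 that were measured had lower means in Card9-/- cells on IC, with a median difference of -0.88. Relb encodes RelB, the partner of p52. Its signals on IC were 7.45, 8.16 and 7.37 in Card9-/- cells in experiments 1, 2 and 3, against 9.13, 9.64 and 8.20 in wild-type cells. Every Card9-/- value lay below every wild-type value, but only just, since the highest Card9-/- value was 8.16 and the lowest wild-type value 8.20. The difference was -1.33 ± 0.23 (SE; 95% confidence interval -1.84 to -0.83; limma adjusted p = 0.0617), with -1.68, -1.48 and -0.84 in the single experiments. The adjusted p was 0.0204 with the experiment as a random block, 0.0393 after quantile normalization and 0.0243 with only the 6 arrays compared, and over all 11 alternatives it ran from 0.0204 to 1.00.

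Nfkb2 encodes p100, which is both an inhibitor and the precursor of p52. Its signals on IC were 8.53, 9.34 and 8.95 in Card9-/- cells, against 10.22, 10.92 and 9.46 in wild-type cells. These groups did not overlap either, although the gap between 9.34 in Card9-/- cells and 9.46 in wild-type cells was narrow. The difference was -1.26 ± 0.28 (SE; interval -1.87 to -0.65; limma adjusted p = 0.135), with -1.69, -1.57 and -0.51 by experiment. Groups without overlap and lower in Card9-/- cells were found for 2 of the 8 genes and for 1.03% of all clusters.

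Rel encodes c-Rel, a transactivating subunit prominent in blood cells. On IC it measured 10.43, 10.88 and 9.95 in Card9-/- cells, against 11.21, 11.48 and 10.07 in wild-type cells. The ranges overlapped, and the low wild-type value came from experiment 3, in which both genotypes were low. The difference was -0.50 ± 0.14 (SE, limma adjusted p = 0.237), with -0.78, -0.60 and -0.12 by experiment.

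Rela encodes p65, the principal transactivating subunit. On IC it measured 10.17, 10.04 and 9.50 in Card9-/- cells, against 10.42, 10.73 and 9.81 in wild-type cells. Its difference of -0.42 ± 0.14 (SE, limma adjusted p = 0.359) was -0.26, -0.70 and -0.31 by experiment, so that, unlike the other subunit genes, it was not smallest in experiment 3.

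Among the kinase genes, Ikbke had the widest difference and the widest spread. Its signals on IC were 6.25, 7.85 and 7.05 in Card9-/- cells, against 9.63, 10.61 and 7.33 in wild-type cells. Experiments 1 and 2 separated the genotypes by -3.39 and -2.76, whereas experiment 3 gave -0.29, and the groups overlapped through that wild-type array. The difference was -2.15 ± 0.51 (SE; interval -3.27 to -1.02; limma adjusted p = 0.170). Without experiment 3 it was -3.08 with an adjusted p of 0.0402, and over the 11 alternative settings and left-out experiments the adjusted p ran from 0.0402 to 1.00.

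Tbk1, the closest relative of Ikbke in the group, measured 8.42, 8.96 and 8.10 on IC in Card9-/- cells, against 9.07, 9.46 and 8.17 in wild-type cells. The sign was the same in every experiment while the size was small in experiment 3 (-0.66, -0.50 and -0.08), and the mean was -0.41 ± 0.12 (SE, limma adjusted p = 0.292). The measured genes of the canonical kinase complex, Ikbkg and Ikbkb, differed least. Ikbkg, which encodes NEMO, measured 8.38, 8.56 and 6.08 in Card9-/- cells, against 8.61, 9.07 and 5.99 in wild-type cells. Its difference was -0.22 ± 0.22 (SE, adjusted p = 0.827). Ikbkb measured 8.20, 8.10 and 7.56 in Card9-/- cells, against 8.09, 8.33 and 7.30 in wild-type cells, with a difference of 0.05 ± 0.12 (SE, interval -0.21 to 0.30, adjusted p = 0.950). For both genes the interval spans 0, and for Ikbkg it reaches from -0.71 to 0.26, so that a difference of the size seen for Rel or Tbk1 lies within it.

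**Figure D2:**
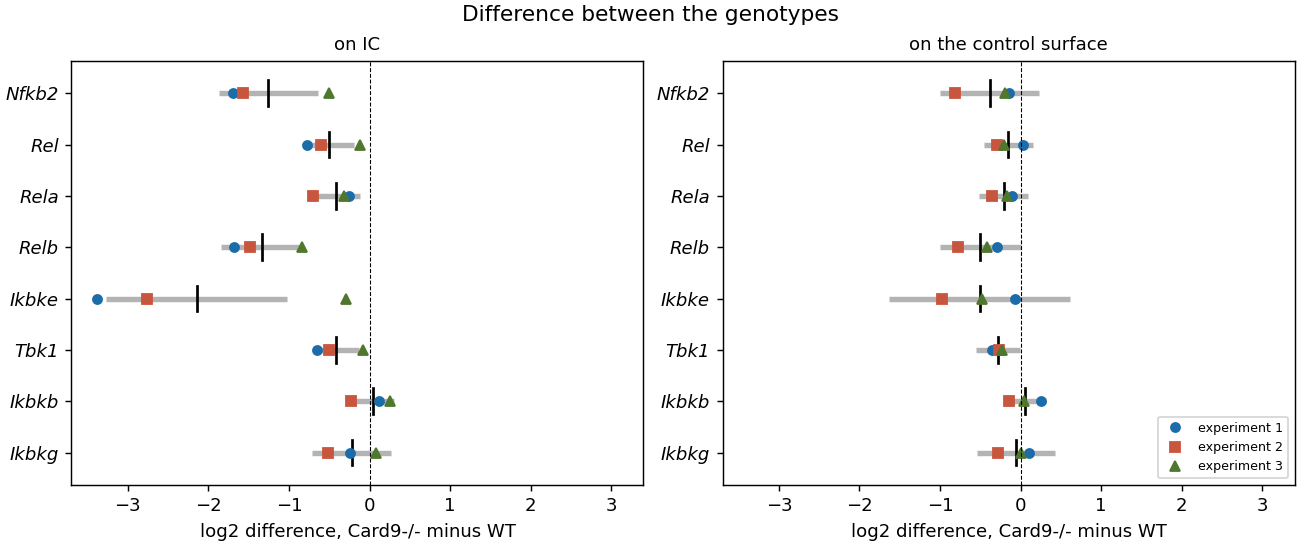
Log2 differences, Card9-/- minus wild type, for the 8 genes on IC (left) and on the control surface (right). Symbols are the single experiments, black ticks the means of 3 and grey bars the limma 95% confidence intervals. On IC the intervals of Relb, Nfkb2, Ikbke, Rel, Rela and Tbk1 lie below 0, and on the control surface only that of Tbk1 does.

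On the control surface the genotypes were closer, and again none of the 8 genes passed the adjusted threshold (limma, smallest adjusted p = 0.954), beside 0.0380% of all clusters, all of them lower in Card9-/- cells. Unadjusted, 1 gene was lower in Card9-/- cells at p under 0.05, beside 2.22% of all clusters. This was Tbk1, with 8.34, 8.89 and 8.07 in Card9-/- cells, against 8.69, 9.16 and 8.30 in wild-type cells. Its difference of -0.28 ± 0.12 (SE) was nearly constant across experiments, although the ranges overlapped because the experiments themselves differed. In all, 5 genes, namely Nfkb2, Rela, Relb, Ikbke and Tbk1, lay below wild type in all 3 experiments, which 12.8% of all clusters did. Relb differed by -0.50 ± 0.23, Ikbke by -0.51 ± 0.51 and Nfkb2 by -0.38 ± 0.28 (SE), and the median of the 8 genes was -0.25, beside 0.026 over all clusters. Without experiment 2 these were -0.36 for Relb, -0.27 for Ikbke, -0.17 for Nfkb2 and -0.15 for the median. On this surface all 7 B cell markers were higher in Card9-/- cells (median 0.52; 1.13, 0.01 and 0.36 by experiment). Of 8 markers of eosinophils, basophils or mast cells, 7 were higher (median 0.32; -0.19, 0.19 and 1.01). All 5 erythroid markers were lower (median -0.99; -2.79, -0.25 and 0.38). Of 12 neutrophil markers, 11 were lower (median -0.07; -0.07, 0.11 and -0.25). Of 8 monocyte and macrophage markers, 7 were lower (median -0.02; -0.07, -0.36 and -0.02). All 4 markers of neutrophil precursors were lower in mean (median -0.08; -0.97, 0.32 and 0.32). Of 7 T or NK cell markers, 6 were higher (median 0.12; 0.18, -0.14 and 0.30). The part of these cells in the differences of the NFκB genes on this surface was not tested. The comparisons on the 2 surfaces use separate arrays, but each shares its arrays with the comparisons of IC and control below.

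The next question was what IC did within each genotype. In Card9-/- cells none of the 8 genes passed the threshold adjusted or unadjusted (limma, smallest adjusted p = 1.00), as 0% and 3.01% of all clusters did, and the median difference of IC and control was -0.08. In wild-type cells none passed after adjustment either (smallest adjusted p = 0.446), again beside 0% of all clusters, while 3 of 8 had an unadjusted p under 0.05 and higher signals on IC, beside 5.18% of all clusters in that direction. The median difference in wild-type cells was 0.23, beside 0.039 over all clusters. It was 0.70, 0.32 and -0.14 in experiments 1 to 3, so its sign turned in experiment 3, and it was 0.080 without experiment 1 and 0.48 without experiment 3.

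These 3 genes were Ikbke, Nfkb2 and Relb, and for each the mean difference in wild-type cells came largely from experiment 1. In Card9-/- cells, Ikbke measured 6.25, 7.85 and 7.05 on IC, against 6.48, 8.67 and 7.12 on the control surface. In wild-type cells it measured 9.63, 10.61 and 7.33 on IC, against 6.54, 9.65 and 7.60 on the control surface. The difference was therefore -0.23, -0.83 and -0.07 in Card9-/- cells (mean -0.38 ± 0.51, SE) and 3.09, 0.96 and -0.27 in wild-type cells (mean 1.26 ± 0.51, adjusted p = 0.488). Thus the wild-type difference was wide in experiment 1, smaller in experiment 2 and of the other sign in experiment 3.

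Nfkb2 on the control surface measured 8.30, 9.75 and 9.04 in Card9-/- cells, and 8.44, 10.56 and 9.23 in wild-type cells. Set against the IC values above, IC and control differed by -0.09 ± 0.28 (SE) in Card9-/- cells and by 0.79 ± 0.28 in wild-type cells (limma adjusted p = 0.446), where the experiments gave 1.78, 0.36 and 0.23. Relb on the control surface measured 7.36, 8.70 and 7.59 in Card9-/- cells, and 7.66, 9.48 and 8.02 in wild-type cells. Its difference was -0.22 ± 0.23 (SE) in Card9-/- cells and 0.61 ± 0.23 in wild-type cells (adjusted p = 0.465), with 1.47, 0.17 and 0.19 by experiment. Nfkb2 and Relb were the only 2 of the 8 genes higher on IC in all 3 wild-type experiments, which 18.8% of all clusters were. Without experiment 1, these 3 differences in wild-type cells were 0.29 for Nfkb2, 0.18 for Relb and 0.35 for Ikbke, and without experiment 3 that of Ikbke was 2.03.

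The remaining genes differed less between the surfaces. In wild-type cells the differences of IC and control were 0.27 for Rel, 0.18 for Tbk1, 0.16 for Ikbkg, 0.13 for Rela and -0.015 for Ikbkb. In Card9-/- cells they were -0.08 for Rel, 0.06 for Tbk1, -0.01 for Ikbkg, -0.08 for Rela and -0.020 for Ikbkb, with standard errors of 0.12 to 0.22 in both genotypes. Tbk1 was the only gene of the 8 above 0 in all 3 Card9-/- experiments and Ikbke the only one below 0 in all 3, which 11.5% and 14.7% of all clusters were.

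**Figure D3:**
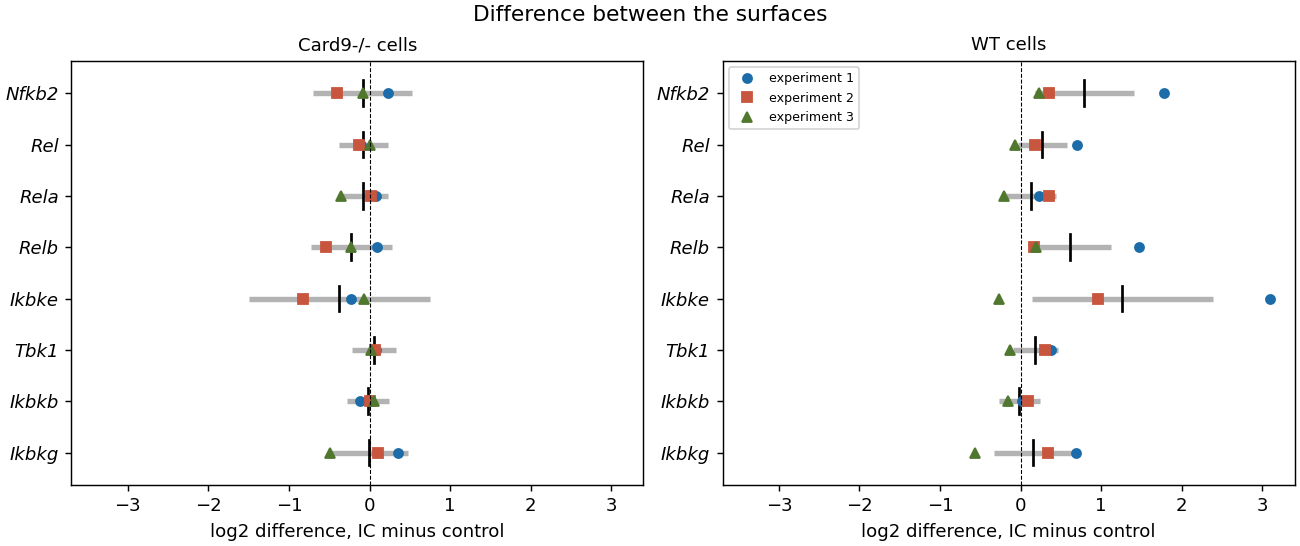
Log2 differences, IC minus control, for the 8 genes in Card9-/- cells (left) and wild-type cells (right), with symbols for the single experiments, black ticks for the means of 3 and grey bars for the limma 95% confidence intervals. In wild-type cells the points of experiment 1 for Nfkb2, Relb and Ikbke (1.78, 1.47 and 3.09) stand apart from those of experiments 2 and 3.

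Whether the effect of IC itself differed between the genotypes was tested by the interaction. All 8 mean interaction values, the IC effect in Card9-/- cells minus that in wild-type cells, were below 0, as were 56.4% of all clusters. Their median was -0.28, beside -0.030 over all clusters. The median was -0.58, -0.32 and 0.076 in experiments 1 to 3, so experiment 3 had the other sign, and it was -0.18 without experiment 1 and -0.42 without experiment 3. None passed after adjustment (limma, adjusted p = 0.999 for each), and 0% of all clusters did. Unadjusted, 3 of 8 had p under 0.05, against 2.65% of all clusters below 0 at that p. These were Ikbke (-1.64 ± 0.73, SE), Nfkb2 (-0.87 ± 0.40) and Relb (-0.83 ± 0.33). For Ikbke the experiments gave -3.32, -1.78 and 0.20, and the mean was -0.79 without experiment 1 and -2.55 without experiment 3. Nfkb2 stood at -0.54 and Relb at -0.56 when experiment 1 was left out. The sign held in all 3 experiments for Nfkb2, Rela and Relb, as it did for 16.6% of all clusters. The interaction and the comparisons above rest on the same 12 arrays and are not independent of each other.

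The order of the 4 groups was the same for Nfkb2, Rel, Rela, Relb, Ikbke and Ikbkg: the mean was lowest in Card9-/- cells on IC, followed by Card9-/- cells on control, wild-type cells on control and wild-type cells on IC. Neighbours in this order were often not separated beyond the spread of their differences over the experiments. For Relb, Card9-/- and wild-type cells on control differed by 0.50 with an SD of 0.25 (n = 3), whereas the neighbouring steps of 0.22 and 0.61 had SDs of 0.32 and 0.75. For Rela, Card9-/- and wild-type cells on control differed by 0.21 with an SD of 0.13, and the other 2 steps were within their SD. For Nfkb2 (0.38, SD 0.38) and Ikbke (0.51, SD 0.46) the same step was about as large as its SD. For Rel, Card9-/- cells on IC and on control differed by 0.08 with an SD of 0.07. Tbk1 had Card9-/- cells on control lowest, 0.06 below Card9-/- cells on IC (SD 0.03), and these 0.23 below wild-type cells on control (SD 0.04). For Ikbkb the 4 means lay between 7.91 and 7.97, and for Ikbkg no step exceeded its SD.

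The experiments differed as much as the groups. Experiment 2 had the highest mean over its 4 arrays for all 8 genes, while the median over all clusters in experiment 2 exceeded that in experiment 1 by 0.17 and that in experiment 3 by 0.55. Ikbke averaged 7.22, 9.20 and 7.28 in experiments 1, 2 and 3, and Nfkb2 averaged 8.87, 10.14 and 9.17. Ikbkg averaged 8.23, 8.70 and 6.30, which placed experiment 3 far below the others. In wild-type cells, Ikbke on IC in experiment 3 (7.33) lay below its level on the control surface in experiment 2 (9.65).

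After the mean of each experiment was subtracted, Nfkb2, Rel, Relb and Ikbke ran closely together over the 12 arrays, with Pearson correlations of 0.95 to 0.99 between any pair of them. Tbk1 correlated with these 4 at 0.88 to 0.90, Rela at 0.75 to 0.78 and Ikbkg at 0.57 to 0.66. Ikbkb stood apart, at -0.10 to 0.07. Among 19930 other genes, the most similar profiles were those of Irf5, Mefv and Gpr132 for Nfkb2 (0.99 each), Irf5, Icam1 and Snx10 for Relb (0.98 each), Tyk2, Tlr9 and Snx10 for Rel (0.99, 0.98 and 0.98), and Tlr9, Tyk2 and Gpc1 for Ikbke (0.99, 0.99 and 0.98). The points share the arrays and the 4 group means, so these values describe likeness on these arrays only.

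The other genes of the pathway were counted on IC from lists by role. Among genes whose proteins bind the subunits, 3 of 10 measured genes fell in Card9-/- cells and none rose, beside 0.117% and 0.0449% of all clusters, with a median of -1.12 beside -0.014 over all clusters. They were Nfkbid, a nuclear IκB protein (-1.18 ± 0.13, SE, limma adjusted p = 0.00624), Nfkbib, which encodes the cytoplasmic inhibitor IκBβ (-1.07 ± 0.17, adjusted p = 0.0393), and Map3k8, a kinase held by the p105 precursor (-1.47 ± 0.23, adjusted p = 0.0393). Each of the 3 was below wild type in all 3 experiments. Nfkbia, the gene of IκBα, had a difference of -1.39 and an adjusted p of 0.0702. On the control surface 8 of the 10 genes already had lower means in Card9-/- cells, as 42.6% of all clusters did. Their median was -0.40, beside 0.026 over all clusters.

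Among NFκB target genes, 2 of 16 fell in Card9-/- cells on IC and none rose, again beside 0.117% and 0.0449% of all clusters. All 16 had lower means in Card9-/- cells, as 53.6% of all clusters did, and the median was -1.18 (-1.32, -1.48 and -0.31 by experiment). Those 2 genes encode the cytokines IL-1α (Il1a, -3.05) and TNF (Tnf, -2.15), with limma adjusted p-values of 0.00624 and 0.0293. On the control surface 15 of the 16 were already lower in Card9-/- cells, as 42.6% of all clusters were, with a median of -0.51. None of the 6 ubiquitin brakes passed on IC, which are enzymes and adaptors that limit signalling by editing ubiquitin chains. Their median was -0.40 (-0.68, -0.83 and -0.0048 by experiment), so it was near 0 in experiment 3. Of these, Tnfaip3, the gene of A20, differed by -1.86 (adjusted p = 0.0951) and Tnip1 by -1.30 (adjusted p = 0.0695).

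In the other 3 lists Card9 was the only gene to pass. It was lower in Card9-/- cells, as 1 of 16 measured genes upstream in the canonical route, whose median was -0.08, and Malt1, the paracaspase partner of CARD9, differed by -0.69 (limma adjusted p = 0.307). None of 7 measured genes of the non-canonical route passed, with a median of -0.17 (-0.18, -0.46 and 0.05 by experiment). Birc3, a ubiquitin ligase, was at -0.85 (limma adjusted p = 0.207). None of 9 adaptors and substrates of TBK1 and IKKε passed, with a median of 0.03 and Irf7, an interferon regulatory factor, at -0.46 (adjusted p = 0.137). In the other comparisons no listed gene passed in any list except Card9, lower in Card9-/- cells on the control surface.

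**Figure D4:**
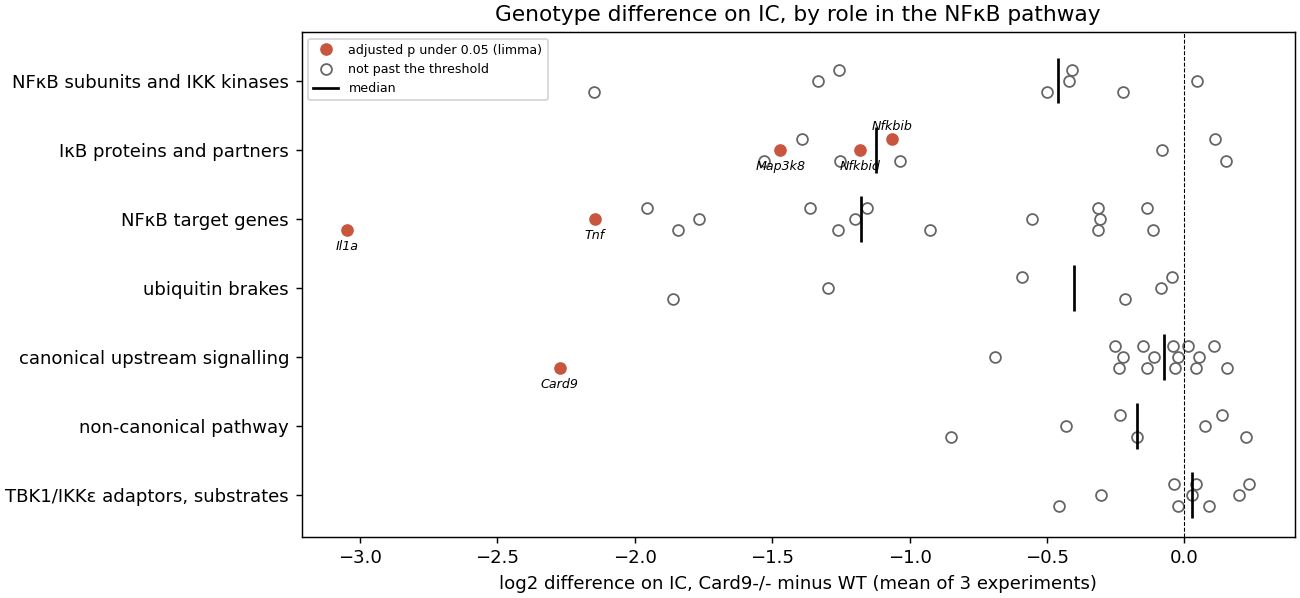
Log2 difference on IC, Card9-/- minus wild type, for each measured gene of 7 groups by role, from the NFκB subunits and IKK kinases to the adaptors and substrates of TBK1 and IKKε. Filled symbols passed an adjusted p of 0.05 (limma, n = 3 arrays per group), ticks are medians and the vertical offset of symbols within a group carries no meaning. The medians of the IκB proteins and partners (-1.12) and of the target genes (-1.18) lie further below 0 than that of the subunits and kinases (-0.46).

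Markers of some other cell types also differed in mean between the genotypes on IC. All 7 B cell markers had higher means in Card9-/- cells on IC, with a median difference of 0.68 (1.59, 0.07 and 0.53 by experiment) and a summed linear signal of 372 to 4608 in Card9-/- cells and 335 to 3279 in wild-type cells. All 8 markers of eosinophils, basophils or mast cells had higher means as well (median 0.42; -0.08, 0.18 and 0.99 by experiment). All 5 erythroid markers had lower means (median -0.69; -1.63, -0.27 and 0.12 by experiment). No marker passed the adjusted threshold, and none had a signal of 0 on any array. At an unadjusted p under 0.05 (limma), 4 of the 7 B cell markers were higher in Card9-/- cells. So was 1 of the 8 markers of eosinophils, basophils or mast cells. Among the 8 monocyte and macrophage markers, 1 was higher and 2 were lower at that p, and no marker of another list reached it. Of all 28944 clusters, 2643 had such a p in either direction. Of the 8 monocyte and macrophage markers, 6 had lower means (median -0.12; 0.11, -0.80 and -0.12 by experiment). Of the 12 neutrophil markers, 11 had higher means (median 0.09; 0.15, 0.15 and -0.05 by experiment). Of 4 markers of neutrophil precursors, 2 had lower means (median -0.06; -0.37, 0.27 and -0.06 by experiment). Of 7 T or NK cell markers, 5 had higher means (median 0.16; -0.06, 0.06 and 0.29 by experiment). The part of these cells in the differences of the NFκB genes was not tested.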

How the data were processed

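The authors deposited 1 log2 signal per transcript cluster and array; for the summarization and normalization of probes, the method was not given in the sources used here, and no further normalization was applied. Of 35556 rows, 6612 control rows were left out, and gene symbols came from the platform annotation (21789 clusters with 1 symbol, 1621 with several, 5534 with none). The 4 groups were fitted in limma 3.58.1 (R 4.3.3) with the experiment as a fixed block (6 residual and 5.40 prior degrees of freedom), and two-sided p-values were adjusted by Benjamini-Hochberg over 28944 clusters with a threshold of 0.05. The blocking rests on the labels, which mark 3 separate occasions. As a check, deviations of arrays from their group means correlated at 0.671 to 0.867 for the same experiment number and at -0.727 to 0.355 for different numbers. The 3 deviations of a group sum to 0, which by itself pushes the values for different numbers below 0, so the contrast is partly built in. With 3 arrays per group the number of arrays limits the precision. The fits were also run on simulated data with independent noise for each cluster. That run does not cover correlation between clusters, and its outcome is not given here. All 10 genes are named, with up to 4 genes of each list by smallest p on IC and the 3 most similar profiles. The genes, lists and tests were chosen with earlier results of these data known. Alternatives were no block, a random block, quantile normalization, median centring, a filter on low signals, limma-trend with robust eBayes, only the arrays compared, the methods' factorial test and leaving out each experiment. Promoter windows were searched in Python 3.11.15, and figures were drawn with matplotlib 3.10.9.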

Additional observations from a re-analysis of the deposited data

Results flagged for a closer look

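For 2 NFκB target genes, the IC effect pointed in opposite directions in the genotypes in every experiment. Tnf differed between IC and control by -0.32 in Card9-/- cells and by 1.19 in wild-type cells, and the effects differed by -1.51 log2. Icam1, the gene of an adhesion molecule and one of the closest profiles to Relb, differed by -0.35 in Card9-/- cells and by 1.11 in wild-type cells, and the effects differed by -1.46. Each effect was below 0 in all 3 Card9-/- experiments and above 0 in all 3 wild-type experiments. Both genes were picked for this pattern, and the share of all clusters that show it was not counted. Taken singly, 14.7% of all clusters were below 0 in all 3 Card9-/- experiments and 18.8% above 0 in all 3 wild-type experiments. The interaction itself did not pass (limma adjusted p = 0.999 for both).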

How the results depend on the processing

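Every median over the 8 genes kept its sign under all alternatives run. Without 1 experiment it lay between 0.080 and 0.48 for IC against control in wild-type cells, -0.42 and -0.18 for the interaction, -0.27 and -0.15 for the genotypes on control and -0.63 and -0.41 on IC. For Card9-/- against wild type on IC, 0 of 8 genes passed, and 1 passed with the experiment as a random block (Relb, -1.33), after quantile normalization (Relb, -1.36) and with only the arrays compared (Relb, -1.33). When single experiments were left out, 0 to 1 passed, namely Ikbke at -3.08 without experiment 3. The adjusted p of Nfkb2 did not go below 0.0520. Over all clusters, the count of 47 for the same comparison became 105 with a random block, 22 after median centring, 173 with only the arrays compared, 0 with no replicate block and 0 in the methods' factorial test without moderation, and 3 to 116 when 1 experiment was left out (76 without experiment 1, 3 without experiment 2 and 116 without experiment 3). On the control surface the count of 11 became 1 with no replicate block, 6 with limma-trend and robust eBayes, 7 with only the arrays compared, 0 in the factorial test and 2 to 7 without 1 experiment. For IC against control in wild-type cells the count of 0 became 7 with a random block and 1 to 51 without 1 experiment. For IC against control in Card9-/- cells the median over the genes was -0.18 to -0.060 without 1 experiment. With no replicate block and in the factorial test, 0 of 8 genes passed in every comparison.

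Reversed signs concerned small differences. Ikbkb turned to 0.040 in wild-type cells (IC against control) after quantile normalization. Median centring turned Ikbkb in Card9-/- cells (IC against control) to 0.0010, its interaction to 0.071 and its genotype difference on control to -0.0031, and Ikbkg in Card9-/- cells to 0.0099. Without 1 experiment, Ikbkb lay between -0.068 and 0.056 (IC against control, wild type), -0.059 and 0.031 (Card9-/-), -0.11 and 0.063 (interaction), -0.051 and 0.15 (genotypes on control) and -0.061 and 0.19 (genotypes on IC). Likewise, for IC against control, Ikbkg lay between -0.11 and 0.52 in wild-type cells and -0.19 and 0.23 in Card9-/- cells, Nfkb2 between -0.24 and 0.072 and Rela between -0.17 and 0.051 in Card9-/- cells, and the genotype difference of Ikbkg on control lay between -0.14 and 0.054. The causes were not tested. Averaging several clusters of a gene was not run because each gene had 1. Of the 8 genes, Ikbke had the widest confidence intervals, and experiment 3 is the one in which most genotype differences on IC were smallest.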
